A study of Homo sapiens with 15 samples.

Results

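The nuclear genes for the subunits of the mitochondrial respiratory chain were described in A549 cells, a human lung adenocarcinoma epithelial line, kept under high or normal oxygen with or without all-trans retinoic acid (ATRA). Members were chosen by symbol, by a rule set with earlier results of these data known: names that begin with NDUFA, NDUFB, NDUFC, NDUFS or NDUFV and a digit, SDHA to SDHD, UQCR, COX4 to COX8 or ATP5, without a hyphen and without a closing P and digits. This gave 100 of 43388 gene rows. Of these rows, 13 were numbered second copies of a symbol, at 0 counts in every library, which leaves 87 genes: 36 of complex I, 4 of complex II, 9 of complex III, 19 of complex IV and 19 of complex V. NDUFA4 and NDUFA4L2, named after complex I, are counted here with complex IV, where NDUFA4 is now placed.

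Every library came from the same line, so no other cell background was sampled. Normoxia was 21% O2 and hyperoxia 95% O2, both for 72 h. Cells received 1e-05 mM ATRA or its ethanol vehicle 24 h before the exposure, and a further set carried neither on its label and is called untreated. The groups were normoxia with vehicle (2 libraries), hyperoxia with vehicle (2), normoxia with ATRA (3), hyperoxia with ATRA (3), untreated normoxia (2) and untreated hyperoxia (2). Nothing in the labels says that the libraries of a group came from separate cultures, so p-values measure the spread between these libraries, which may be technical. Values are scaled to the counts of each library, so they do not measure the number of cells in a culture. In total RNA of a culture, a smaller share of cells that express a gene and less of its RNA per cell cannot be told apart. The keratins KRT8 and KRT18, markers of epithelium, were read at 4275 counts or more and 1890 counts or more in every library, while of the other epithelial markers KRT19 had 77 to 539 counts, CDH1 35 to 354 and EPCAM 0 to 24. Among 13 markers of other cell types the highest were the monocyte gene CD14 at 0 to 52 counts a library, the fibroblast gene COL1A1 at 0 to 38 and the endothelial gene CDH5 at 0 to 20. PECAM1, PDGFRB and PLIN1 had at most 4 counts, PTPRC, COL1A2 and FABP4 at most 1, and CD3E, DCN, ADIPOQ and LEP had 0.

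As background, the respiratory chain sits in the inner mitochondrial membrane. Complex I takes electrons from NADH and complex II takes them from succinate. Both hand them by ubiquinone to complex III, from which cytochrome c carries them to complex IV, which reduces oxygen to water. Complexes I, III and IV pump protons, and complex V, the ATP synthase, lets the protons return and makes ATP. Complex I is also a main source of superoxide, which makes the chain a point of interest in cells under high oxygen. Most subunits are encoded in the nucleus, and nuclear respiratory factor 1 (NRF1), the ETS-family factor GABP and YY1 are known regulators of these genes. The subunits that mitochondrial DNA encodes were not analysed here.

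A promoter window of 300 bases, 250 before the start of the gene and 50 after it, was at hand from RefSeq (GRCh38.p14) for 71 of the 87 genes. Letters known from NRF1 sites (GCGCATGC, searched on both strands) were in 13 of these 71 windows, 18.3%, against 3.3% of 27305 windows of all genes. Letters of ETS-type sites (CCGGAAG) were in 20 windows, 28.2% against 10.7%, and letters of YY1-type sites (AAGATGGCG) in 8 windows, 11.3% against 1.8%. The Sp1-type run GGGGCGGGG was in 10 windows, 14.1% against 15.99%. The stretches printed here lie before the start in some of the members with a match there. NDUFB4, ATP5MC2, ATP5PD and NDUFS1 were called lower in hyperoxia in at least 1 comparison, and UQCR11 and COX6A1 were called higher in 1. ATP5F1A, ATP5MC1 and NDUFB9, called lower in more than 1 comparison, had no match to any of these letters, though some may have had no window. In COX4I1 the ETS-type letters lay at or after the start. The stretches are written 5′ to 3′ on the strand of the gene, with NRF1-type or ETS-type letters, or their reverse complement, in capitals. NDUFB4 holds the NRF1-type letters on both strands, overlapping in 1 run of capitals, and UQCR11 holds the ETS-type letters at 2 places.
NDUFB4, chr3:120596155-120596210, + strand: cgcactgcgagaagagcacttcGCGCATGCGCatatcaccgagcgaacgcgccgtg
ATP5MC2, chr12:53676092-53676147, - strand: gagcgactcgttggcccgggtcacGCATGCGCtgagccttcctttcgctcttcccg
ATP5PD, chr17:75047040-75047094, - strand: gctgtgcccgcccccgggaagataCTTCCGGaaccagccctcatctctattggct
NDUFS1, chr2:206159571-206159625, - strand: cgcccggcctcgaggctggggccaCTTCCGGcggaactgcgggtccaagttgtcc
UQCR11, chr19:1605529-1605583, - strand: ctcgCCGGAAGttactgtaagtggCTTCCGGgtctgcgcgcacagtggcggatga
COX6A1, chr12:120438073-120438112, + strand: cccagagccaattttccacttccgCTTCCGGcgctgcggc
The letters were not tested against the response to oxygen. The NRF1-type letters were in 3 of 15 windows of members called lower in any oxygen comparison and in 9 of 47 windows of tested members that were never called, and the ETS-type letters were in 4 of 15 and 13 of 47. Of the 5 windows of members called higher, 1 held the NRF1-type and 3 the ETS-type letters. YY1-type letters were in 8 of the 47 and in none of the 15 or of the 5, and the Sp1-type run was in 8 of 47, 1 of 15 and 1 of 5. A match is a description of the letters and does not show that a factor binds there.

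The 14 libraries held 2642377 to 5605072 counts on genes, of which the members took 4987 to 6778 CPM (counts per 1e6 counts on genes). 1 library stood apart from the rest: untreated hyperoxia replicate 1 had a count for 12657 genes, while the other 13 libraries had one for 16465 to 20108. In that library NDUFB7 and NDUFS4, both read in every other library, had 0 counts. Untreated calls of named genes that are lost without it are therefore marked. Values per library are CPM after trimmed-mean (TMM) scaling of the library totals. For tests a gene had to pass a filter on low counts, which 80 of the 87 members did. A gene is called where its p from edgeR's quasi-likelihood F-test, adjusted by the Benjamini-Hochberg method over all genes tested, is under 0.05, and every adjusted p in the text comes from that test.

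The levels of the subunits in normoxia spanned more than 2 orders of magnitude once divided by transcript length. Levels per length are given as the mean over the 7 normoxia libraries in CPM per kb, with the median length of the protein coding transcripts of the gene (GENCODE 44). COX6B1, which helps join the 2 copies of complex IV in the dimer, had the highest level of all at 394 ± 33.0 (SD, n = 7) CPM per kb. ATP5F1B, the catalytic beta subunit of the ATP synthase, led complex V at 301 ± 27.9 (SD, n = 7), with ATP5MF, a small membrane subunit, beside it at 300.3 ± 51.4 (SD, n = 7), which is within their spread. UQCRB, which lies near the ubiquinone site, led complex III at 177 ± 34.8 (SD, n = 7), and the membrane anchor SDHC led complex II at 117 ± 17.3 (SD, n = 7). In complex I, NDUFA1 at 166 ± 24.9 and NDUFS5 at 166 ± 25.9 (SD, n = 7 each) did not differ beyond their spread. At the low end of each complex stood NDUFV3 at 5.35 ± 1.02, SDHD at 23.6 ± 3.84, the retrocopy-like UQCRHL at 2.79 ± 0.946, NDUFA4L2 at 1.95 ± 1.05 and ATP5F1D at 43.2 ± 10.4 CPM per kb (SD, n = 7 each). The median member of a complex had 61.9 CPM per kb in complex I, 52.0 in complex II, 72.6 in complex III, 126 in complex IV and 101 in complex V. These levels depend on which transcript lengths are used.

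**Figure D1:**
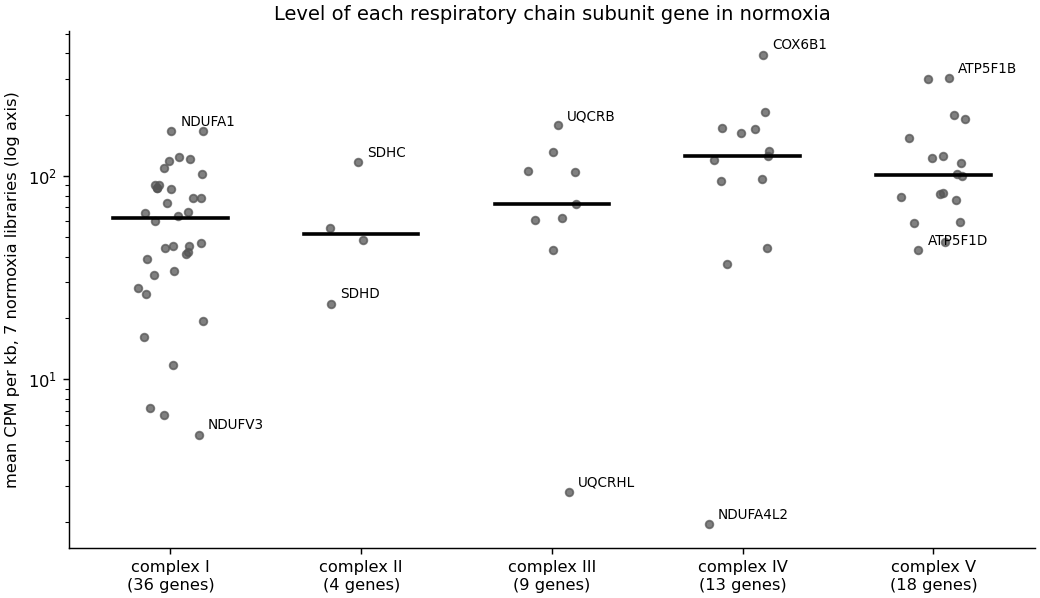
Each point is 1 of 80 tested subunit genes, placed by complex, with its mean level in the 7 normoxia libraries in CPM per kb on a log axis; the bar is the median of the complex. COX6B1 is highest at 394, and NDUFA4L2 is lowest at 1.95.

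Where a subunit has tissue-restricted forms, the libraries held the common form. COX4I1, the usual form of the COX4 subunit, was at 206 ± 23.0 CPM per kb (SD, n = 7), while COX4I2, known as the form of the lung and of low oxygen, had 4 counts over 14 libraries. COX6A1 was at 173 ± 26.7 CPM per kb (SD, n = 7) and its heart and muscle partner COX6A2 had 0 counts in every library. COX7A2 was at 119 ± 14.5 (SD, n = 7) against 12 counts over all 14 libraries for the muscle form COX7A1. COX8A was at 162 ± 29.9 (SD, n = 7), and COX8C, a testis form, was at 0. The testis form COX6B2 had 19 counts, ATP5MGL had 2, and COX7B2 had none. A count of 0 allows up to 0.535 to 1.14 CPM depending on the library, by the rule of 3 counts, and this limit covers counting error only. None of these 7 genes passed the filter. NDUFA4 was at 37.1 ± 6.49 CPM per kb, and NDUFA4L2, known to replace it under low oxygen, had 0 to 15 counts a library. The 3 genes for the same ring subunit c of the ATP synthase differ in their targeting sequence. ATP5MC1 was at 199 ± 20.3, ATP5MC2 at 191 ± 23.9 and ATP5MC3 at 153 ± 26.4 CPM per kb (SD, n = 7 each), and the first 2 did not differ beyond their spread.

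Summed over all members, the level went from 6391 ± 434 CPM in normoxia with vehicle to 5613 ± 201 in hyperoxia with vehicle (SD, n = 2 each). It was 5614 ± 294 and 5346 ± 57.7 with ATRA (SD, n = 3 each), and 6109 ± 154 and 5443 ± 261 untreated (SD, n = 2 each). Complex V held 33.9% of the sum, complex I 28.9%, complex IV 19.7%, complex III 12.9% and complex II 4.66%. The complexes did not move alike. The sum of complex V was 2329 and 2156 CPM in normoxia with vehicle and 1937 and 1806 in hyperoxia with vehicle, with no overlap. With ATRA the values were 1839, 1956 and 2070 against 1703, 1621 and 1673, and untreated they were 2118 and 2185 against 2000 and 1728. Complex V was thus lower in hyperoxia than in normoxia within each treatment, although 2 hyperoxia libraries, one with vehicle and the library that stood apart, reached into the range of the normoxia libraries given ATRA. Complex I was at 1981 and 1829 CPM against 1582 and 1545 with vehicle, and at 1733 and 1839 against 1535 and 1449 untreated, while with ATRA the groups overlapped (1675, 1489 and 1766 against 1575, 1608 and 1488). Complex II went the other way. Its sum was 261, 259, 228, 263, 226, 215 and 249 CPM in the 7 normoxia libraries and 306, 275, 279, 337, 274, 270.2 and 288 in the 7 hyperoxia libraries. Every hyperoxia library lay above every normoxia library, with means of 290 ± 24.0 and 243 ± 19.7 (SD, n = 7 each). Of all genes tested, 6.34% had this order singly. How often the sum of a gene set of this size has it is not given here. The order of the complex II sum therefore cannot be set against a background. Complexes III and IV overlapped between oxygen levels over the 14 libraries, at 711 to 789 CPM in hyperoxia against 668 to 824 in normoxia for complex III, and at 1053 to 1141 against 1016 to 1302 for complex IV. Sums are led by the most abundant genes and carry no test here.

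**Figure D2:**
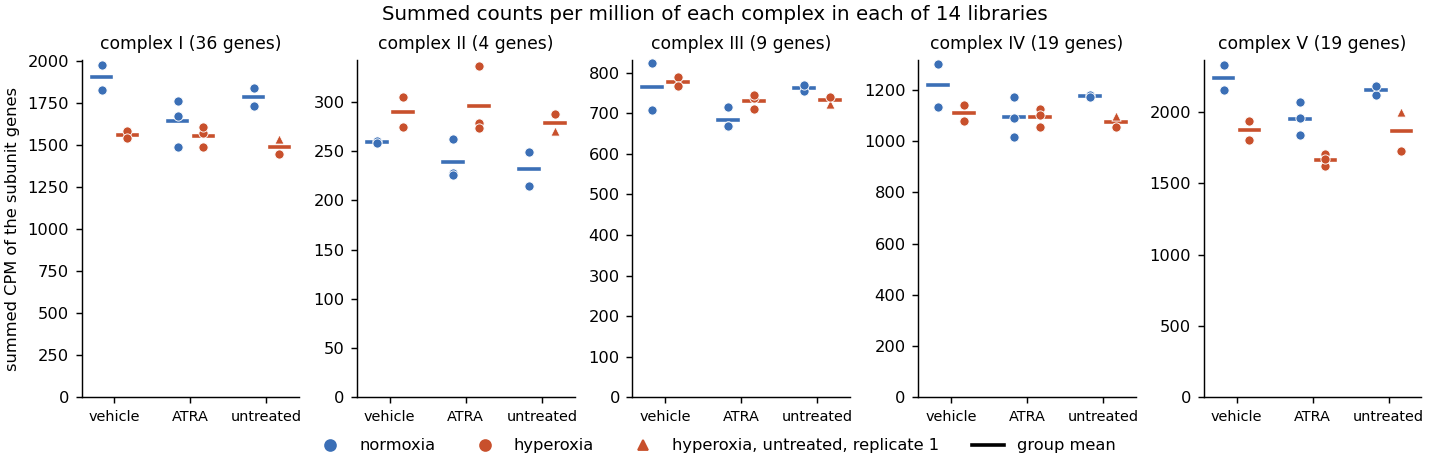
Summed CPM of the subunit genes of each complex, 1 point a library, in the vehicle, ATRA and untreated groups; bars are group means and the triangle is the library that stood apart. In complex II all 7 hyperoxia libraries, 270.2 to 337, lie above all 7 normoxia libraries, 215 to 263. How often sums of other gene sets do so is not given.

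The question of each oxygen comparison was which subunit genes differ between 95% and 21% O2 at the same treatment. The groups compared share no library between the 3 comparisons, but the fits do. The vehicle and ATRA comparisons came from 1 fit of 10 libraries, and the untreated one from a fit of all 14. Their p-values are therefore not independent. With vehicle, 11 of 80 members (13.8%) fell in hyperoxia and 1 (1.25%) rose, while over all 14957 genes tested 8.81% were called lower and 8.68% higher. The median log2 fold change was -0.16 over members and 0.01 over all genes. With ATRA, 11 members (13.8%) fell and 4 (5%) rose, against 11.3% and 11.4% of all genes, with medians of -0.03 and 0.01. Untreated, 9 members (11.2%) fell and 2 (2.5%) rose, against 7.58% and 7.57% of 15339 genes, with medians of -0.22 and -0.10. Lower calls were thus above the share of all genes, and higher calls below it, in these 3 fits. With ATRA the lower calls were near that share, at 13.8% against 11.3%. The untreated excess of lower calls was gone without the library that stood apart. Whether the members differ from all genes was not tested. Most members, 68, 65 and 69 of 80, were not called. The counts rest on few libraries. Leaving out a vehicle or untreated library leaves 1 library in its group. Without untreated hyperoxia replicate 2, that is the library that stood apart. Except for the fit without that library, the shares of all genes called in these other fits are not given here. Their counts of members therefore cannot be set against a background. With vehicle, 4 or 5 members were called, all of them lower, when either library of either group was left out: 4 without replicate 1 of hyperoxia or of normoxia, 5 without replicate 2 of either. With all 14 libraries in the fit the count was 4, those of ATP5F1A, ATP5MC1, COX4I1 and NDUFB9, and with only the 4 vehicle libraries it was 28. Untreated, the calls numbered 4 without hyperoxia replicate 1, the library that stood apart, 33 without hyperoxia replicate 2, and 5 and 6 without normoxia replicate 1 and 2. Without the library that stood apart, 4 members (5%) fell and none rose, against 5.14% and 5.36% of all genes, so that the members were no longer above the background. The untreated medians were then -0.42 in complex I, 0.27 in complex II, -0.02 in complex III, -0.08 in complex IV and -0.29 in complex V, against -0.03 over all genes. With only the 4 untreated libraries in the fit no member passed, though 9 had an unadjusted p under 0.05. With ATRA the count stayed between 10 and 15 when any 1 library was left out, and was 8 with all 14 libraries in the fit, where NDUFA5, NDUFB10, NDUFB4, NDUFB5, NDUFS1, SDHA and UQCRB lost theirs.

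**Figure D3:**
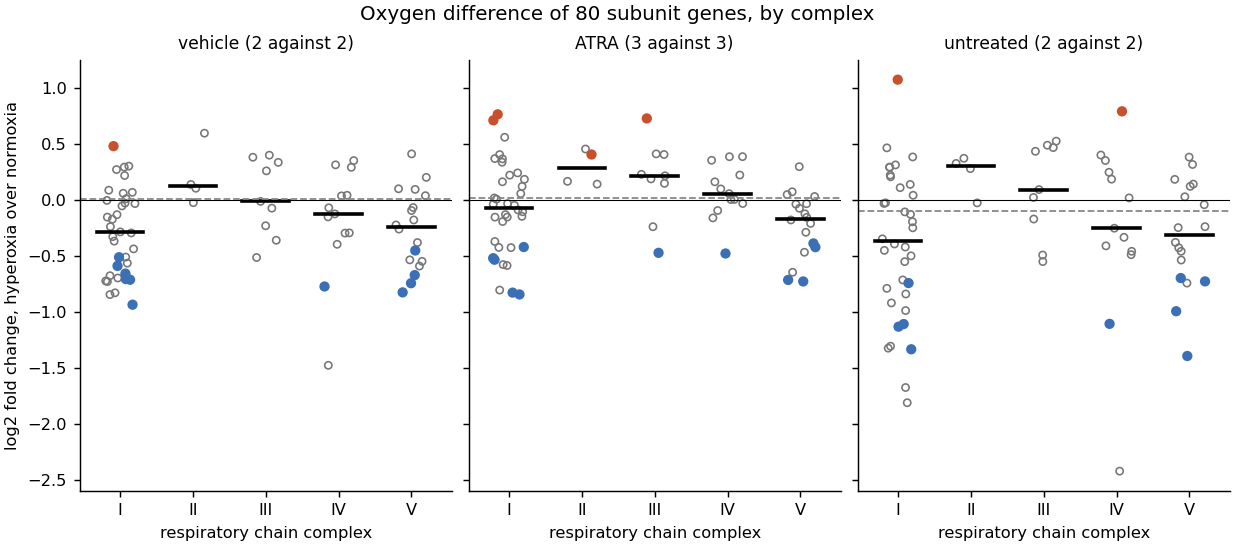
Log2 fold change, hyperoxia over normoxia, of 80 subunit genes by complex with vehicle, with ATRA and untreated; filled points passed an adjusted p of 0.05 (blue lower, red higher), solid bars are medians of the complex and the dashed line is the median of all genes tested. Complex V lies mostly below 0 and complex II mostly above it in all 3 panels.

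In complex V, the ATP synthase, 4 of 18 tested genes fell in each comparison and none rose. That is 22.2%, against 8.81%, 11.3% and 7.58% of all genes called lower with vehicle, with ATRA and untreated. Without the library that stood apart 2 of 18 (11.1%) fell untreated, against 5.14% of all genes. The median log2 fold change of the complex was -0.24 with vehicle, -0.17 with ATRA and -0.31 untreated, and 11 of the 18 genes were below 0 in all 3. ATP5F1A, the alpha subunit of the catalytic head, was at 294 and 258 CPM in normoxia with vehicle and at 174 and 172 in hyperoxia with vehicle. With ATRA it was at 234, 238 and 273 against 189, 216 and 165, and untreated at 279 and 267 against 156 and 175. All 7 hyperoxia libraries lay below all 7 normoxia libraries. Its log2 fold change was -0.67 ± 0.15 (SE) with vehicle (adjusted p = 0.00222), -0.39 ± 0.12 with ATRA (adjusted p = 0.0213) and -0.73 ± 0.15 untreated (adjusted p = 0.00318). The call with ATRA was lost without replicate 3 of either oxygen level (adjusted p 0.0768 and 0.0951). ATP5F1B, its partner in the head, was not called in any comparison, at -0.26 ± 0.14, -0.29 ± 0.11 and -0.04 ± 0.14.

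ATP5MC1, a gene for subunit c, was at 125 and 112 CPM against 72.1 and 69.0 with vehicle, at 94.2, 100.5 and 109 against 65.3, 58.5 and 60.2 with ATRA, and at 97.1 and 115 against 74.9 and 54.7 untreated. The oxygen levels again did not overlap in any of the 14 libraries. It fell by 0.75 ± 0.16 (SE) on the log2 scale with vehicle (adjusted p = 0.00184), by 0.72 ± 0.13 with ATRA (adjusted p = 0.000386) and by 0.70 ± 0.18 untreated (adjusted p = 0.0139), the last call being lost without normoxia replicate 2 (adjusted p = 0.0889). ATP5MC2, with the same mature protein, was at 201 and 188 against 149 and 135 CPM with vehicle (log2 fold change -0.45 ± 0.14, adjusted p = 0.0268, or 0.0729 to 0.22 without any 1 of the vehicle libraries), and at 166, 190.4 and 199 against 134, 144 and 137 with ATRA (-0.42 ± 0.11, adjusted p = 0.0102). Untreated, 1 normoxia library, at 137, was close to the hyperoxia libraries at 116 and 136, and the gene was not called (-0.38 ± 0.16, adjusted p = 0.131). ATP5MC3, the remaining gene for subunit c, was not called, at -0.10 ± 0.16, 0.03 ± 0.14 and -0.43 ± 0.18. Whether the 3 genes differ from each other in their response was not tested.

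ATP5PD, subunit d of the peripheral stalk, was at 69.5 and 62.3 CPM against 40.0 and 34.2 with vehicle, and at 40.4, 58.7 and 57.3 against 33.2, 21.8 and 37.8 with ATRA. It fell by 0.83 ± 0.24 (SE) on the log2 scale with vehicle (adjusted p = 0.0203) and by 0.73 ± 0.20 with ATRA (adjusted p = 0.0122), a call that ended without normoxia with ATRA replicate 2 (adjusted p = 0.0513). With vehicle the call ended without any 1 of the 4 vehicle libraries (adjusted p 0.0595 to 0.175). ATP5PD overlaps KCTD2, whose counts came to 111% of its own and whose log2 fold change was 0.41 with vehicle and 0.72 with ATRA. ATP5IF1, the inhibitor that stops the ATP synthase from running backwards, was called lower in the untreated libraries alone, at 50.7 and 51.1 CPM against 11.8 and 27.7 (-1.40 ± 0.33, adjusted p = 0.00938). The lower of the hyperoxia values is that of the library that stood apart. Without it the log2 fold change was -0.88 and the adjusted p 0.0556. With vehicle ATP5IF1 was at 52.5 and 46.5 against 35.8 and 32.3 (-0.54 ± 0.23, adjusted p = 0.12), and with ATRA the groups overlapped. ATP5ME, a small membrane subunit, was called lower in the untreated libraries too, at 43.9 and 32.9 against 20.2 and 18.2 CPM (-0.996 ± 0.301, adjusted p = 0.0354), and the call ended without the library that stood apart, without normoxia replicate 1, and without either normoxia library with vehicle or replicate 1 with ATRA, and with the library set as a block.

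In complex IV, 1 of 13 tested genes fell in each comparison, and it was COX4I1 each time. That is 7.69%, against 8.81%, 11.3% and 7.58% of all genes called lower with vehicle, with ATRA and untreated. The 1 higher call, untreated, was also 7.69%, against 7.57% of all genes. COX4I1, the regulatory subunit that binds ATP, was at 187 and 163 CPM against 107 and 98.0 with vehicle. With ATRA it was at 162, 129.5 and 154 against 122, 104 and 95.1, and untreated at 174 and 174 against 72.3 and 89.3. No hyperoxia library reached the lowest normoxia library. The log2 fold change was -0.77 ± 0.16 (SE) with vehicle (adjusted p = 0.00152), -0.47 ± 0.13 with ATRA (adjusted p = 0.0121) and -1.11 ± 0.17 untreated (adjusted p = 0.000369). The call with ATRA was lost without normoxia replicate 1 or hyperoxia replicate 3 (adjusted p 0.0549 and 0.0636). COX6A1 rose in the untreated libraries, from 78.4 and 88.5 CPM to 176 and 112 (0.79 ± 0.21, adjusted p = 0.0209). The 176 is the value of the library that stood apart, and without it the log2 fold change was 0.42 and the call was lost, as it was without either normoxia library (adjusted p 0.0712 to 0.266 over these 3 fits) and with the library set as a block. COX6A1 was at 0.29 ± 0.17 with vehicle and 0.39 ± 0.14 with ATRA (adjusted p = 0.3 and 0.0579). COX6B1, highest per kb but below ATP5F1A and ATP5F1B in CPM, was not called, yet its 7 hyperoxia libraries, at 140.4 to 171 CPM, all lay below its 7 normoxia libraries, at 173 to 209.6. Its log2 fold changes were -0.30 ± 0.13, -0.16 ± 0.11 and -0.34 ± 0.14. The medians of complex IV were -0.13 with vehicle, 0.05 with ATRA and -0.25 untreated. NDUFA4 was not called in any comparison, at -0.15 ± 0.19, 0.16 ± 0.15 and -0.25 ± 0.21, and the 0 to 15 counts of NDUFA4L2 gave no usable difference (-1.48 ± 1.23, 0.35 ± 0.98 and -2.42 ± 1.56).

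In complex III, none of 9 tested genes was called with vehicle or untreated, and with ATRA 1 rose and 1 fell. Each is 11.1%, against 11.4% and 11.3% of all genes called higher and lower with ATRA. UQCR11, the smallest subunit of the complex, was at 57.4, 42.4 and 55.2 CPM in normoxia with ATRA and at 76.1, 87.2 and 94.4 in hyperoxia with ATRA, with no overlap (0.73 ± 0.16, adjusted p = 0.00172). With vehicle it was at 68.5 and 54.6 against 80.6 and 80.5 (0.40 ± 0.19, adjusted p = 0.166), and untreated at 44.9 and 59.5 against 64.1 and 76.9 (0.43 ± 0.21, adjusted p = 0.181). Thus all 3 comparisons had every hyperoxia library above their own normoxia libraries, with 1 call. Over the 14 libraries the oxygen levels overlapped, the lowest hyperoxia value being 64.1 and the highest normoxia value 68.5. The share of all genes with this order within each treatment is not given here. UQCRB fell with ATRA, from 111, 122 and 89.3 to 84.9, 68.9 and 76.5 CPM (-0.47 ± 0.16, adjusted p = 0.0336, or 0.0718 to 0.136 without normoxia replicate 1 or 2 or hyperoxia replicate 2 or 3), and was at -0.36 ± 0.19 and -0.49 ± 0.22 in the other comparisons. The 2 core proteins UQCRC1 and UQCRC2 and the Rieske iron-sulfur protein UQCRFS1 were not called in any.

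In complex II, the only complex that is also an enzyme of the citric acid cycle, none of the 4 genes was called with vehicle or untreated, and SDHA rose with ATRA. That is 25% of so few genes, against 11.4% of all genes called higher with ATRA. SDHA, the flavoprotein that oxidises succinate, was at 111, 132 and 108 CPM in normoxia with ATRA and at 167, 172 and 126 in hyperoxia with ATRA, so that 1 hyperoxia library lay within the normoxia range (0.41 ± 0.14, adjusted p = 0.0363). The call was lost in 8 of the 10 fits that left out 1 library, at adjusted p of 0.0662 to 0.165: those without replicate 1 or 2 of hyperoxia with ATRA, replicate 1 or 3 of normoxia with ATRA, or any vehicle library. It was lost too with all 14 libraries, or only the ATRA libraries, in the fit. With vehicle SDHA was at 122 and 132 against 136 and 115 (-0.03 ± 0.17), and untreated at 103 and 123 against 135 and 148 (0.32 ± 0.18, adjusted p = 0.229). SDHC, which anchors the enzyme in the membrane, was at 48.0 and 52.0 against 79.8 and 71.9 CPM with vehicle (0.59 ± 0.21, adjusted p = 0.0566), at 0.14 ± 0.17 with ATRA and at 0.37 ± 0.23 untreated. The iron-sulfur subunit SDHB was at 0.10 ± 0.24, 0.16 ± 0.20 and -0.03 ± 0.29, and the anchor SDHD at 0.14 ± 0.27, 0.45 ± 0.23 and 0.28 ± 0.31. The sum of the complex therefore separated the oxygen levels in all 14 libraries while each of its 4 genes overlapped over the 14. How often a sum of 4 genes does so is not given here, so this separation does not show a trait particular to the complex.

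Complex I has the most genes and the highest number of calls. With vehicle 6 of its 36 genes fell and 1 rose, with ATRA 5 fell and 2 rose, and untreated 4 fell and 1 rose. As shares, its lower calls came to 16.7%, 13.9% and 11.1%, against 8.81%, 11.3% and 7.58% of all genes and 22.2% of complex V in each comparison. Its higher calls came to 2.78%, 5.56% and 2.78%, against 8.68%, 11.4% and 7.57% of all genes. Without the library that stood apart, 1 gene of complex I (2.78%) fell untreated, below the 5.14% of all genes, and complex V was at 11.1%. The medians of complex I were -0.29, -0.07 and -0.37. NDUFB4, an accessory subunit of the membrane arm, was at 76.1 and 73.1 CPM against 45.1 and 46.1 with vehicle, and at 62.3, 62.7 and 71.6 against 47.4, 50.9 and 39.2 with ATRA. Untreated it was at 79.95 and 72.9 against 19.8 and 52.4. The 7 hyperoxia libraries lay below the 7 normoxia libraries, and the gene fell by 0.71 ± 0.19 (SE) on the log2 scale with vehicle (adjusted p = 0.0102), by 0.52 ± 0.15 with ATRA (adjusted p = 0.0179) and by 1.11 ± 0.31 untreated (adjusted p = 0.0236). The 19.8 belongs to the library that stood apart. Without it the untreated log2 fold change was -0.55 and the call was lost, as it was without either untreated normoxia library (adjusted p 0.0602 to 0.152 over these 3 fits). With vehicle the call ended without any 1 of the 4 vehicle libraries (adjusted p 0.0533 to 0.0807), and with ATRA without replicate 3 of either oxygen level (adjusted p 0.0643 and 0.0712).

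NDUFB9, another membrane arm subunit, was at 108 and 89.2 CPM against 49.8 and 52.8 with vehicle (-0.94 ± 0.18, adjusted p = 0.000867), and at 88.2, 73.7 and 84.1 against 39.8, 52.0 and 47.7 with ATRA (-0.83 ± 0.15, adjusted p = 0.000403). Untreated it was at 91.3 and 77.7 against 114 and 50.5, and was not called (-0.03 ± 0.27). The 114 is the library that stood apart, and the other 6 hyperoxia libraries, at 39.8 to 52.8, all lay below the 7 normoxia libraries. NDUFB10, also of the membrane arm, was at 109 and 84.8 against 52.2 and 69.0 CPM with vehicle (-0.66 ± 0.20, adjusted p = 0.0228, or 0.25 and 0.266 without replicate 1 of either oxygen level). With ATRA it was at 83.7, 64.3 and 70.8 against 51.0, 56.6 and 44.2 (-0.54 ± 0.17, adjusted p = 0.0229), a call that was lost without normoxia replicate 1 or hyperoxia replicate 3 (adjusted p 0.087 to 0.125). NDUFA11 fell with vehicle, from 71.3 and 61.2 CPM to 40.3 and 40.1 (-0.71 ± 0.23, adjusted p = 0.0361). It was not called with ATRA (-0.11 ± 0.19), and it lost its call without any 1 of the vehicle libraries (adjusted p 0.0747 to 0.21), with all 14 libraries in the fit, and with vehicle and ATRA libraries together. NDUFB11, on the X chromosome, was at 61.2 and 51.6 against 39.0 and 35.7 CPM with vehicle (-0.59 ± 0.20, adjusted p = 0.0462, or 0.0531 to 0.293 without any vehicle library or normoxia with ATRA replicate 1 or 3). That call was lost in 4 of 8 other settings as well: no filter, the library set as a block, all 14 libraries in the fit, and vehicle and ATRA libraries together, where the log2 fold change was -0.32. NDUFB11 overlaps RBM10, which had 177% of its counts.

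NDUFA5 fell with ATRA, from 18.5, 24.0 and 21.1 to 13.3, 12.2 and 9.68 CPM (-0.85 ± 0.30, adjusted p = 0.0432), and the call ended in the fits without normoxia replicate 1, 2 or 3 or hyperoxia replicate 2 or 3 of that treatment (adjusted p 0.0593 to 0.125), by DESeq2, with all 14 libraries in the fit and with only the ATRA libraries in it (adjusted p up to 0.117). NDUFB3 fell in the untreated libraries, from 48.2 and 36.5 to 16.4 and 22.5 CPM (-1.13 ± 0.29, adjusted p = 0.0158), whereas it was at -0.03 ± 0.24 with vehicle and 0.22 ± 0.20 with ATRA. That call was lost without the library that stood apart and without normoxia replicate 1 (adjusted p 0.0767 and 0.155). NDUFB6 was at 26.7 and 31.4 against 9.19 and 14.01 CPM untreated (-1.34 ± 0.41, adjusted p = 0.037), at -0.85 ± 0.35 with vehicle and at -0.81 ± 0.29 with ATRA (adjusted p = 0.104 and 0.0528). Its untreated call ended in 8 of the 14 fits that left out 1 library: without untreated hyperoxia replicate 1, either untreated normoxia library, any vehicle library or normoxia with ATRA replicate 1. It ended with the library set as a block too.

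The members of complex I that rose did so in different comparisons. NDUFA10, an accessory subunit related to nucleoside kinases, was at 82.7 and 80.2 CPM against 116 and 111 with vehicle (0.48 ± 0.16, adjusted p = 0.0463), a call that was lost in 6 of the 10 fits that left out 1 library: without any vehicle library or without normoxia with ATRA replicate 1 or 3 (adjusted p 0.0527 to 0.278). It was also lost in 6 of 8 other settings: both other scalings, no filter on low counts, the library set as a block, DESeq2, and all 14 libraries in the fit (adjusted p up to 0.0774). It was at 0.16 ± 0.14 with ATRA and 0.29 ± 0.16 untreated. NDUFA13, also known as GRIM-19, a cell death regulator induced by interferon and retinoic acid, was at 54.3, 35.3 and 58.0 CPM in normoxia with ATRA and at 95.2, 81.1 and 65.6 in hyperoxia with ATRA (0.71 ± 0.18, adjusted p = 0.00757). With vehicle it was at 61.5 and 50.9 against 59.4 and 57.0 (0.06 ± 0.22), and untreated at 0.11 ± 0.26. The difference between the ATRA and the vehicle response, 0.65 ± 0.29, had an adjusted p of 0.644. NDUFB5 was at 17.2, 17.5 and 15.1 CPM against 28.8, 31.4 and 24.6 with ATRA (0.76 ± 0.23, adjusted p = 0.0194). Untreated it was at 19.9 and 17.03 against 49.7 and 27.7 (1.07 ± 0.32, adjusted p = 0.0355), and with vehicle at 17.7 and 22.2 against 24.9 and 23.7 (0.27 ± 0.28). It was the 1 member whose 7 hyperoxia libraries all lay above its 7 normoxia libraries. The 49.7 is the library that stood apart, without which the untreated log2 fold change was 0.58 and the call was lost. The untreated call was also lost without either untreated normoxia library, any vehicle library or normoxia with ATRA replicate 1, with no filter and with the library set as a block, and the ATRA call without hyperoxia replicate 2 or normoxia replicate 3 of that treatment (adjusted p 0.0617 and 0.0837).

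The core subunits of complex I carry the flavin and the iron-sulfur clusters. In each comparison 14.3% of the 7 core genes were called lower, against 17.2%, 13.8% and 10.3% of the 29 accessory genes, and the difference between these shares was not tested. NDUFS1, the largest core subunit, was at 93.9, 90.8 and 95.0 CPM against 76.1, 53.6 and 77.2 with ATRA (-0.42 ± 0.14, adjusted p = 0.0392) and at 103 and 103 against 49.5 and 73.9 untreated (-0.74 ± 0.20, adjusted p = 0.0221). The first call was lost without any of the 3 normoxia libraries or hyperoxia replicate 2 of that treatment (adjusted p 0.0554 to 0.12), the second without hyperoxia replicate 1, the library that stood apart, or either normoxia library (adjusted p 0.0713 to 0.194). The first was lost also with library totals as the scaling, with all 14 libraries in the fit and with only the ATRA libraries in it, and the second with the library set as a block. With vehicle it was at 99.8 and 107 against 78.5 and 74.1 and was not called (-0.44 ± 0.17, adjusted p = 0.0921), yet its 7 hyperoxia libraries lay below its 7 normoxia libraries. NDUFV1 and NDUFV2, at the NADH end of the complex, were not called in any oxygen comparison. The medians over the 7 core genes were -0.30, -0.15 and -0.25, and over the 29 accessory genes -0.29, -0.04 and -0.42, in the order vehicle, ATRA, untreated. Without the library that stood apart the untreated medians were -0.07 and -0.45, and no core gene was called.

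**Figure D4:**
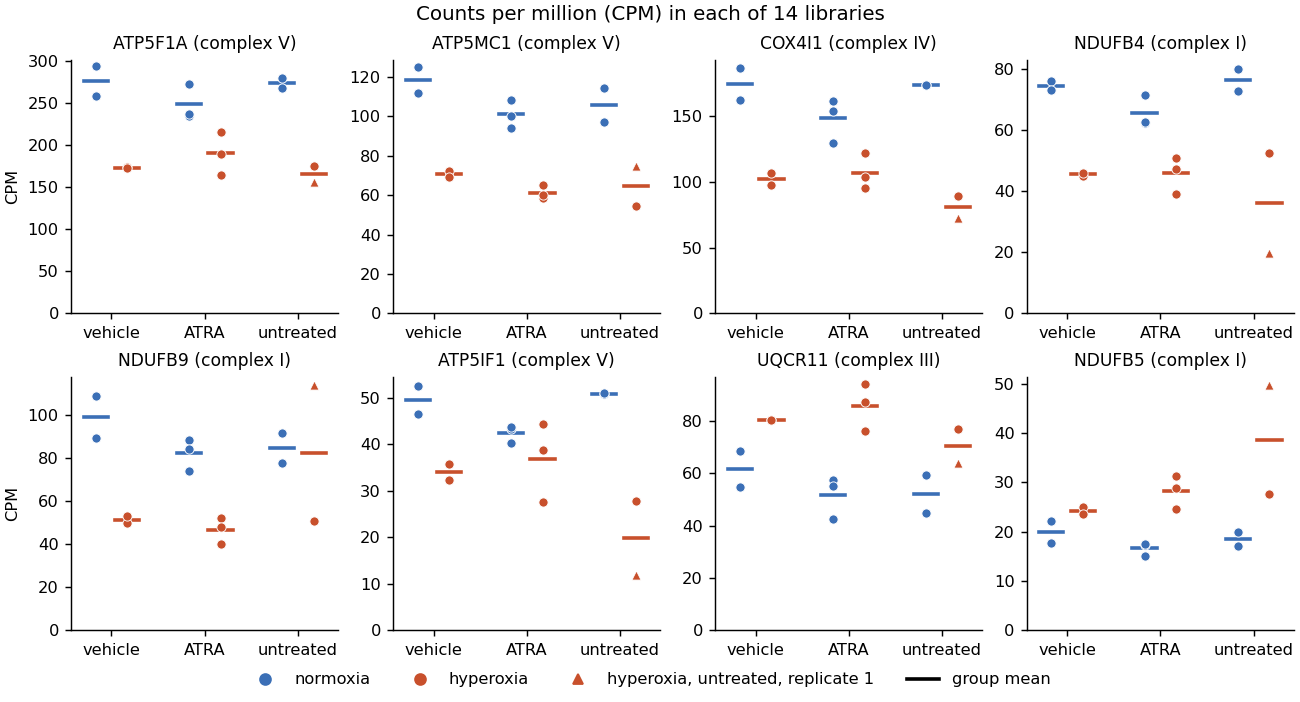
CPM of 8 subunit genes in each of 14 libraries, normoxia in blue and hyperoxia in red, for the vehicle, ATRA and untreated groups; bars are group means and the triangle marks the library that stood apart. In ATP5F1A, ATP5MC1, COX4I1 and NDUFB4 every red point lies below every blue one, and in NDUFB9 the triangle alone, at 114, does not.

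Over the 3 oxygen comparisons, 18 members were called lower at least once and 6 higher at least once, and no member was called in opposite directions. ATP5F1A, ATP5MC1, COX4I1 and NDUFB4 were called lower in all 3. With vehicle and with ATRA, 8 of the 11 lower calls of each were the same genes: these 4 with ATP5MC2, ATP5PD, NDUFB9 and NDUFB10. Between the untreated and the vehicle libraries 4 were shared, of 9 and 11, and between the untreated and the ATRA libraries 5, of 9 and 11, with NDUFS1 as the fifth. Of higher calls NDUFB5 was the 1 shared, between ATRA and untreated. The matching shares over all genes, for calls made at least once or shared, are not given here. These counts therefore do not show a trait particular to the members. By direction alone, 32 of 80 members (40%) were below 0 in all 3 comparisons and 16 (20%) above, against 29.7% and 27.7% of all genes. Over all 14 libraries, 7 members (8.75%) had every hyperoxia library below every normoxia library, against 7.31% of all genes: ATP5F1A, ATP5MC1, COX4I1, COX6B1, NDUFB1, NDUFB4 and NDUFS1. NDUFB5 alone (1.25%) had every one above, against 6.34%. Without the library that stood apart, an alternative chosen after seeing the data, 10 members (12.5%) lay below, with ATP5PD and NDUFB9 among those added, and 2 (2.5%) above, adding UQCR11, against 8.7% and 8.74% of all genes. Of the 38 calls, 9 held in every alternative tried: ATP5F1A and COX4I1 with vehicle, ATP5MC1 and NDUFB9 with vehicle and with ATRA, and ATP5MC2, NDUFA13 and UQCR11 with ATRA. The members called lower had a median transcript length of 740 bases with vehicle, 740 with ATRA and 651 untreated, against 690, 690 and 704 for the other tested members. Their median levels were 72.8, 83.9 and 57.1 CPM against 61.1, 59.1 and 62.8, and neither property was tested.

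**Figure D5:**
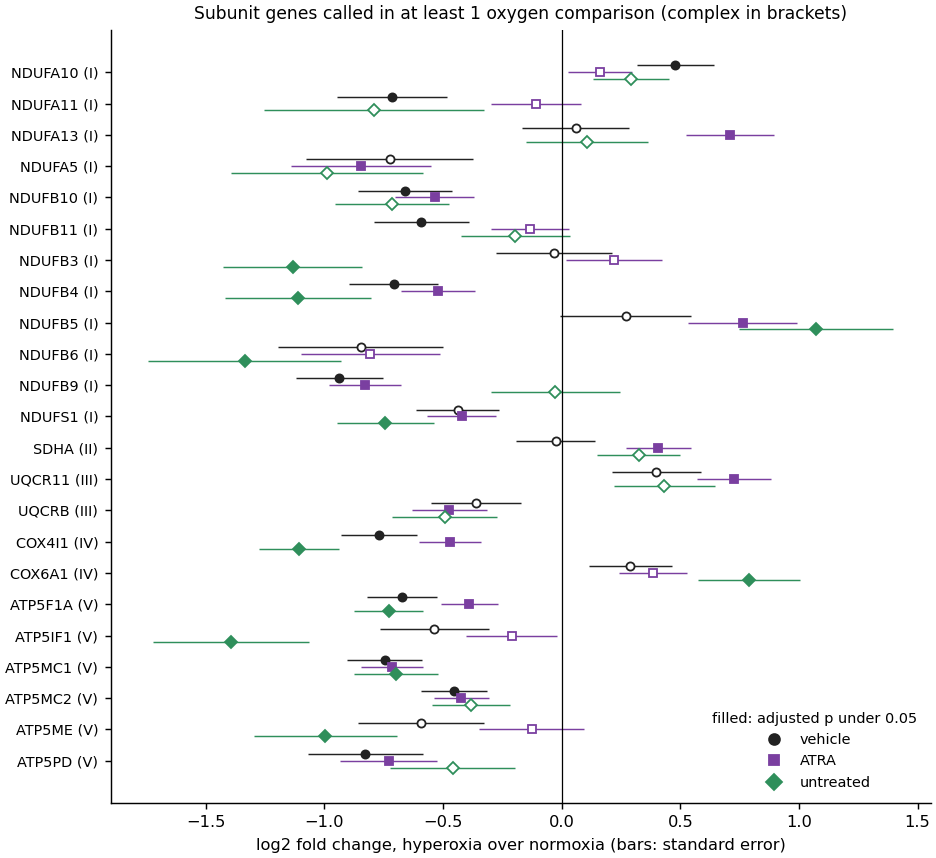
Log2 fold change, hyperoxia over normoxia, with its standard error, for 23 subunit genes called in at least 1 oxygen comparison; circles are vehicle, squares ATRA and diamonds untreated, filled where the adjusted p was under 0.05. ATP5F1A, ATP5MC1, COX4I1 and NDUFB4 have 3 filled symbols, all below 0.

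The ATRA comparisons asked whether the retinoid changes these genes at a fixed oxygen level, and they share libraries with the oxygen comparisons. No member was called in normoxia or hyperoxia by edgeR's quasi-likelihood test, nor by DESeq2. Over all genes 1.25% were called in normoxia and 2.21% in hyperoxia. Before adjustment, 7 members in normoxia and 6 in hyperoxia had a p under 0.05 by edgeR, and 4 and 6 by DESeq2. In normoxia 73 of 80 members were below 0, against 7457 of all 14957 genes tested. Their median was -0.20 on the log2 scale, and that of all genes was 0.00. Ribosomal protein genes lay mostly below 0 as well: 61 of 78 of mitochondria (median -0.20) and 71 of 83 of the cytosol (median -0.12). Whether the members differ from these was not tested. Among members the lowest unadjusted p was that of NDUFA8, at -0.59 ± 0.20 (adjusted p = 0.259), followed by the synthase subunit ATP5MF at -0.44 ± 0.15 (adjusted p = 0.282) and the Rieske protein UQCRFS1 at -0.37 ± 0.14 (adjusted p = 0.356). In hyperoxia 48 members were below 0, with a median of -0.07, against 7417 of all 14957 genes. The lowest unadjusted p among members was that of ATP5MPL, a small synthase subunit, at -0.52 ± 0.18 (adjusted p = 0.161). The 4 genes called lower in all oxygen comparisons were at 0.13 ± 0.13 (ATP5F1A), -0.20 ± 0.15 (ATP5MC1), 0.07 ± 0.15 (COX4I1) and 0.00 ± 0.17 (NDUFB4) for ATRA in hyperoxia, none of them called. The interaction, which asks whether the oxygen difference depends on ATRA, also gave no call by edgeR or DESeq2, with 2 members at an unadjusted p under 0.05 by either tool, against 0.14% of all genes called. Its median was 0.14 over members and 0.00 over all genes, and the members with an unadjusted p under 0.05 by edgeR were NDUFA2 at 0.93 ± 0.40 (adjusted p = 0.622) and NDUFA13. A missed threshold with 2 or 3 libraries a group does not show that ATRA left these genes as they were.

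Genes that serve the chain without being members were read by list. Unlike those of members, their calls with vehicle and with ATRA were not checked by leaving out libraries. The counts of each list stand against the shares of all genes called higher and lower, 8.68% and 8.81% with vehicle, 11.4% and 11.3% with ATRA, and 7.57% and 7.58% untreated. Of 14 genes for complex I assembly, 1 rose and 1 fell with vehicle, 3 rose and 2 fell with ATRA, and 1 rose untreated, which is 7.14% in each direction with vehicle, 21.4% and 14.3% with ATRA, and 7.14% and 0% untreated. NDUFAF8 rose in all 3 comparisons, at 0.90 ± 0.24 (adjusted p = 0.00994), 1.15 ± 0.20 (adjusted p = 0.000187) and 1.23 ± 0.27 (adjusted p = 0.00557), and ACAD9 fell with vehicle and ATRA, at -1.27 ± 0.27 (adjusted p = 0.00184) and -0.83 ± 0.22 (adjusted p = 0.00978). Untreated, ACAD9 was at 34.1 ± 2.69 CPM in normoxia and 39.6 ± 37.5 in hyperoxia (SD, n = 2 each) and was not called. Of 34 assembly genes for complexes II to V, 3 rose and none fell with vehicle, 2 rose and 1 fell with ATRA, and 2 rose and 2 fell untreated, no share being above 8.82%. COX19, a copper chaperone factor of complex IV, rose in all 3 at 1.26 ± 0.31, 1.05 ± 0.26 and 1.19 ± 0.36 (adjusted p = 0.00644, 0.00474 and 0.0336), while COX4I1 fell in them. ATPAF2, which assembles the head of the ATP synthase, rose in all 3 at 0.90 ± 0.26, 0.89 ± 0.22 and 1.13 ± 0.29 (adjusted p = 0.0191, 0.005 and 0.0159), while ATP5F1A of that head fell. Of the 3 chain genes whose symbols fall outside the rule, NDUFAB1, CYC1 and CYCS, none was called with vehicle or untreated. With ATRA the cytochrome c1 gene CYC1 rose (0.50 ± 0.13, adjusted p = 0.00776) and the cytochrome c gene CYCS fell (-0.35 ± 0.12, adjusted p = 0.0456).

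Among 14 regulators of mitochondrial biogenesis, 1 fell with vehicle, 1 rose with ATRA, and 1 rose and 1 fell untreated. Each of these is 7.14% of the list, below the share of all genes. POLRMT, the mitochondrial RNA polymerase, fell with vehicle (-0.96 ± 0.25, adjusted p = 0.0106) and untreated (-1.63 ± 0.33, adjusted p = 0.00315). The nuclear receptor ESRRA rose with ATRA (0.63 ± 0.18, adjusted p = 0.0162) and untreated (1.31 ± 0.27, adjusted p = 0.00433). Of 15 citric acid cycle genes 1 rose and 2 fell with vehicle, 3 rose and 4 fell with ATRA and 1 fell untreated, which is 6.67% and 13.3%, then 20% and 26.7%, then 0% and 6.67%. Fumarase, FH, the step after succinate dehydrogenase, fell in all 3 at -0.86 ± 0.22, -0.999 ± 0.185 and -0.90 ± 0.23 (adjusted p = 0.00864, 0.000419 and 0.0144). Of 14 genes for other abundant proteins of the mitochondrial membrane and matrix, 5, 6 and 4 fell (35.7%, 42.9% and 28.6%) and none rose. The ADP/ATP carrier SLC25A6 fell by 1.56 ± 0.16, 1.20 ± 0.13 and 1.39 ± 0.18 on the log2 scale (adjusted p = 3.82e-07, 6.3e-07 and 7.91e-05), and the chaperonin pair HSPD1 and HSPE1 fell in all 3. The 78 mitochondrial ribosomal protein genes had medians of -0.04, 0.00 and -0.25, with 4, 5 and 1 called higher and 1, 4 and 3 lower. The 83 tested cytosolic ribosomal protein genes had medians of -0.67, -0.57 and -0.74, with 60, 60 and 56 called lower (72.3%, 72.3% and 67.5%) and 3, 1 and 0 called higher. Without the library that stood apart, which was also tried for these lists after seeing the data, the untreated calls of NDUFAF8 (0.91 ± 0.28, adjusted p = 0.0356), ESRRA (0.82 ± 0.27, adjusted p = 0.0489), POLRMT (-1.30 ± 0.35, adjusted p = 0.0156) and FH (-0.91 ± 0.28, adjusted p = 0.0372) held, as did those of SLC25A6, HSPD1 and HSPE1. Those of COX19 (0.88 ± 0.38, adjusted p = 0.166) and ATPAF2 (0.93 ± 0.32, adjusted p = 0.0658) were lost, and none of the 34 assembly genes for complexes II to V was called. The untreated medians of the mitochondrial and cytosolic ribosomal protein genes were then -0.13 and -0.84. Of the mitochondrial ones 4 were then called higher and 0 lower, and of the cytosolic ones 0 higher and 54 lower. In the ATRA comparisons no gene of these lists was called by edgeR at either oxygen level, other than 2 cytosolic ribosomal protein genes that fell in hyperoxia.

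Several members lie across other genes, and how reads in shared stretches were counted is not given in the sources used here, so their values are uncertain. Beside ATP5PD and NDUFB11, the readthrough gene ATP5MF-PTCD1 had 152% of the counts of ATP5MF, NAA15 had 568% of those of NDUFC1, and SHMT2 had far more counts than NDUFA4L2. The recurrent members ATP5F1A, ATP5MC1, COX4I1, NDUFB4 and NDUFB9 had no overlapping gene with as much as 10% of their counts. UQCRHL is a close copy of UQCRH, and reads may be split between them.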

How the data were processed

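RNA was sequenced from A549 cultures in 15 libraries. The sources used here name Trimmomatic 0.38 for trimming, HISAT2 for alignment to hg38, HTSeq for counting and DESeq2 for the study's tests, and the authors deposited raw read counts per gene for each library. Whether counting used strand is not given in the sources used here. HTSeq rows that name no gene were left out of totals. They took 75.2 to 78.4% of reads in each of the 14 libraries, of which reads on no feature were 48.6 to 55.3% of all reads. 1 library was left out of every comparison because its labels disagree. Counts were tested with edgeR 4.0.16 (R 4.3.3): TMM scaling, filterByExpr with a minimum count of 10 and total of 15, glmQLFit and glmQLFTest, Benjamini-Hochberg adjustment over all genes tested and a threshold of 0.05. Comparisons of vehicle and ATRA groups came from 1 fit of 10 libraries in 4 groups (14957 genes), the untreated comparison from 1 fit of 14 libraries in 6 groups (15339 genes). Errors of log2 fold changes are standard errors. Library totals of 2642377 to 5605072 counts set the precision of low genes, and 3 counts are 0.535 to 1.14 CPM. Alternatives were other scaling (RLE, library totals), no filter, DESeq2 1.42.0, other sets of libraries, a library-set block and leaving out each library; fits were tested on simulated data. The members and lists were chosen with earlier results of these data known. Named members were, in each comparison, up to 6 calls a direction by size of change, the highest and lowest level of each complex, isoform pairs, ATP5IF1, SDH genes and core complex I genes; ATP5F1A and NDUFB11, and the other members given with values, were added after their values were seen. Of genes that are no member, up to 4 a list by smallest p were named. Lists were complex I assembly, complex II to V assembly, chain genes outside the symbol rule, biogenesis regulators, citric acid cycle, membrane and matrix proteins, and ribosomal proteins of mitochondria and cytosol. Promoter windows are RefSeq GRCh38.p14; 4 symbols were matched by their current names. 1 member is counted with the rest but its values are not reported here.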

Additional observations from a re-analysis of the deposited data

How the results depend on the processing

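No paired analysis was possible because the labels carry no replicate number that groups share; the block used here is a set of consecutive library numbers, not a pairing of samples. Of 105 alternatives to the 6 counts of called members, 92 stayed within 1.5 times the main count, 13 moved further and none reversed. The 92 include all 50 alternatives for ATRA at either oxygen level and for the interaction, which kept 0 called members. A count of 0 has no direction to reverse, so these 50 say nothing about the oxygen counts. All 13 that moved were counts of oxygen comparisons, and the shares of all genes called in the same fits are not given with the counts below. With vehicle, the 12 calls became 4 with all 14 libraries in the fit, 28 with only the vehicle libraries (4 higher, 24 lower) and 25 (7 higher, 18 lower) with ATRA as a covariate over both treatments; leaving out 1 library gave 4 to 15. With ATRA, the 15 calls became 8 (2 higher, 6 lower) with all 14 libraries. Untreated, the 11 calls became 0 with only the untreated libraries, and 4 to 33 when 1 library was left out: 4 without hyperoxia replicate 1 and 33 (6 higher, 27 lower) without hyperoxia replicate 2. The fit of all 14 libraries estimated a larger spread (biological coefficient of variation 0.306 against 0.203 with 10 libraries). The library set, read from library numbers in the titles, changed the counts to 11, 17 and 9 as a block, and ended 2 of the 12 vehicle calls (NDUFA10 and NDUFB11), none of the ATRA calls and 5 of the 11 untreated calls (ATP5ME, COX6A1, NDUFB5, NDUFB6 and NDUFS1). Of 691 alternatives to the 38 calls of single members, 544 kept the call, 147 lost it and none changed sign.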

Other observations

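The library left out of every comparison, whose title names hyperoxia and whose treatment label names adipogenic differentiation, held 4415705 counts on genes. Of the 80 tested members none was at 0 in it, and ATP5F1A had 155 CPM, scaled by the total counts on genes. No cause or group can be given for this library from its labels.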
